A study of Mus musculus with 6 samples.

Results

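The sebaceous gland lipid enzymes are 10 genes named for the making of sebum: Fads2, Fads1, Scd1, Scd3, Elovl3, Elovl4, Awat2, Dgat2, Soat1 and Mc5r. They were chosen by name, as every array probe whose accession belongs to 1 of them. All 10 genes, with 14 probes, were found and passed the filter on dim probes, out of 22750 genes tested from 41174 probes. Each of the 6 arrays carried RNA of back skin from C57/BL mice given cyclosporin A, labelled with Cy5, against RNA of back skin from C57/BL mice given ethanol, labelled with Cy3. Cyclosporin A is an immunosuppressant that blocks the phosphatase calcineurin. Skin was taken 2, 4 or 7 days after treatment, with 2 arrays for each day, and each ethanol sample was of the same day as its cyclosporin A sample. Age, sex, dose, route and number of animals per sample are not given in the sources used here. The series text speaks of biological replicates but ties none to a separate animal, so a p-value here covers only how these samples varied, which may be technical.

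Sebum is made by sebocytes, which fill with lipid and burst into the hair canal. Fatty acids are built by fatty acid synthase, lengthened by elongases of the ELOVL family and given double bonds by stearoyl-CoA desaturases and fatty acid desaturases. Acyltransferases then join them to alcohols as wax esters (AWAT2), to diacylglycerol as triglycerides (DGAT2) or to cholesterol as cholesteryl esters (SOAT1). MC5R is a melanocortin receptor through which sebaceous secretion is stimulated in mice, and mice without Scd1 have underdeveloped sebaceous glands.

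A level is given as log2 intensity in 1 channel after normalization, and a difference as the log2 ratio of cyclosporin A over ethanol on the same array, where 1 unit is a doubling. The samples carried the signal of a sebaceous gland. Of the 10 genes, 9 were well above background in both channels on every array on which they were measured, including Awat2 and Scd3. Mc5r was well above background with cyclosporin A on 1 of 2 arrays at day 2, 2 of 2 at day 4 and 1 of 2 at day 7, against 0 of 2, 1 of 2 and 0 of 2 with ethanol. Of 18 other genes of the sebaceous gland, 15 could be tested. The summed log2 level of a list is the log2 of its genes' summed intensities, so its brightest genes weigh most. For these 15 it lay between 17.09 and 17.5 with cyclosporin A and between 17.25 and 17.72 with ethanol over all days.

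The arrays differed in how well the samples of a day matched. Over all genes, the log2 ratios of the 2 arrays of a day correlated with r = 0.00761 at day 2, 0.426 at day 4 and 0.589 at day 7. What set the 2 arrays of day 2 apart was not tested, and the means of day 2 below rest on them. Every sample description carries replicate number 1, so the numbers used here are those of the sample titles. The arrays of days 2 and 4 shared 1 slide and those of day 7 lay on another, so slide and day 7 cannot be told apart. The dyes were never swapped, so that a channel is also a dye. Between 59.6% and 68.8% of probes were well above background in the cyclosporin A channel and between 43.2% and 56.4% in the ethanol channel.

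At day 7, skin given cyclosporin A held more Fads2 RNA and less Awat2 RNA than skin given ethanol, and these were the 2 sebaceous lipid genes that passed the test (limma over all 6 arrays, Benjamini-Hochberg adjustment over all genes, adjusted p under 0.05). The share of all genes called at day 7 was 2.99%, made up of 2.35% higher and 0.642% lower. The median log2 ratio of the 10 genes was 0.18, with 6 above 0, beside a median of 0.03 over all genes. At day 2, 0 of the 10 were called by limma, with 0 at an unadjusted p under 0.05 (9.68% of all genes), and the share of all genes called was 0%. At day 4, 0 were called by limma, with 1 (Scd1) at an unadjusted p under 0.05 (15% of all genes), and 0.0044% of all genes were called. In bulk tissue, fewer cells of a type and less RNA per cell cannot be told apart.

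The promoters of the 2 genes that were called are shown because they moved in opposite directions, with Fads2 first. They come from RefSeq on GRCm38.p6, which holds 6 promoters for 5 of the 10 genes, and each runs from 250 bases before to 50 bases after an annotated start, 5′ to 3′ on the minus strand. Fads2 lies at chr19:10101454-10101753, and Awat2 has a start at chrX:100412538-100412837 and another at chrX:100442668-100442967. Capitals mark CCAAT boxes (CCAAT or its complement ATTGG) and GC boxes (GGGCGG or its complement CCGCCC), elements that many promoters carry.
Fads2: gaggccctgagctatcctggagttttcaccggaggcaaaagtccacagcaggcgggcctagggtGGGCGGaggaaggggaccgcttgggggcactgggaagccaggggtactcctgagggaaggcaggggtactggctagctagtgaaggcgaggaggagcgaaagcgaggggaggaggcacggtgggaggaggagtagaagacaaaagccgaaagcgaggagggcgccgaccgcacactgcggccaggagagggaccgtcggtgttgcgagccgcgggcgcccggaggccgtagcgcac
Awat2, start 1: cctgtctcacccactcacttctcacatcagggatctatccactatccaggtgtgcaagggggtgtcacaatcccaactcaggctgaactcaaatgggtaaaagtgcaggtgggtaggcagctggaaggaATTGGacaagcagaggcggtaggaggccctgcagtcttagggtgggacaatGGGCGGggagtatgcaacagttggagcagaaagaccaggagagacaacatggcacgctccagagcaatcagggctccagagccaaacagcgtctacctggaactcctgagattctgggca
Awat2, start 2: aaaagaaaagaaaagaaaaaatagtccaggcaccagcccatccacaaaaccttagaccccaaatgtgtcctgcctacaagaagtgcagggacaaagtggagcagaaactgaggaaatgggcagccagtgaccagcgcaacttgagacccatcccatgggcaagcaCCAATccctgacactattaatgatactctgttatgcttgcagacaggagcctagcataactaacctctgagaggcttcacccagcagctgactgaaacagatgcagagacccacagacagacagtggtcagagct
The Fads2 promoter held a GC box at position -186 from the start and no CCAAT box. The promoter of start 1 of Awat2 held an ATTGG at -121 and a GC box at -70, and that of start 2 held a CCAAT at -85. CCAAT or its complement was in 37.4% of the 32851 RefSeq promoters and in 4 of the 6 held for these genes. The GC box was in 35.7% of all and in 4 of the 6. A sterol regulatory element, searched as TCACNCCAC or its complement GTGGNGTGA, was in 1.24% of all and in 0 of the 6. These matches describe the letters in the window.

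Among the desaturases of the 10 genes, Fads2 carried the clearest difference. Its enzyme makes the first desaturation in the synthesis of polyunsaturated fatty acids, and in human sebum it makes sapienic acid. At day 7 its level was 9.04 and 9.02 with cyclosporin A, against 8.17 and 8.07 with ethanol. Both cyclosporin A samples of day 7 were above every other sample of either treatment and day, where Fads2 lay between 7.89 and 8.42. The log2 ratio was 0.88 and 0.95 on the 2 arrays, a mean of 0.92 (SE 0.12, 95% interval 0.64 to 1.19) or 1.89-fold higher with cyclosporin A (limma, adjusted p = 0.0169). The ratio was 0.16 and -0.08 at day 2, and 0.18 and 0.1 at day 4, so that the 2 arrays of day 7 stood clear of the other 4. The call was lost without either array of day 4 (adjusted p = 0.0531 each), without replicate 1 of day 7 (0.111) and without replicate 2 of day 7 (0.117), with the log2 ratio between 0.88 and 0.95.

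Fads1 lies next to Fads2 on chromosome 19 and its enzyme acts later in the same pathway. Its level at day 7 was 10.15 on both arrays with cyclosporin A, against 9.86 and 9.61 with ethanol. The log2 ratio was 0.18 and -0.5 at day 2, -0.16 and -0.64 at day 4, and 0.3 and 0.54 at day 7. Cyclosporin A was below ethanol on both arrays of day 4 and above it on both arrays of day 7. The day 7 mean of 0.42 (SE 0.2, 95% interval -0.05 to 0.89) did not pass the test (limma, adjusted p = 0.264). Fads3, the neighbour of Fads2 on its other side and chosen after its values were seen, had log2 ratios of 0.76 and 0.52 at day 7 (limma, adjusted p = 0.088).

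Scd1, the main stearoyl-CoA desaturase of mouse skin, was measured on 1 of the 2 arrays of day 7, since the other spot was marked as an outlier by the scanner software. Its level there was 15.86 with cyclosporin A, against 15.33 with ethanol. The log2 ratio was -0.01 and -0.22 at day 2, 0.21 and 0.46 at day 4, and 0.53 on the single array of day 7. The ratios of days 4 and 7 were above 0 and those of day 2 were not, but no day passed the test (limma, adjusted p = 0.817, 0.329 and 0.183 for days 2, 4 and 7). With the outlier spot kept, an alternative chosen after the data were seen, the missing array of day 7 gave 0.32.

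Scd3 is a desaturase found mainly in skin and other sebaceous tissue of mice. Its log2 ratio was -0.23 and -0.05 at day 2, -0.21 and 0.11 at day 4, and -0.23 and -0.78 at day 7. The mean of day 7 was -0.51 (SE 0.17, 95% interval -0.9 to -0.11) and did not pass the test (limma, adjusted p = 0.148). Scd3 and Scd1 lie in 1 cluster on chromosome 19, with Scd2 and Scd4 between them. Scd2, the family member best known from brain, had log2 ratios of 1 and 1.44 at day 7 and was called higher (mean 1.22, limma, adjusted p = 0.0177). The measured desaturases of the cluster gave values of 1.22 for Scd2, 0.53 for Scd1 and -0.51 for Scd3 at day 7, and the differences between them were not tested. The value of Scd3 was 0.07 when arrays were centred on their median in place of loess, while those of Scd1 and Scd2 kept their sign.

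**Figure D1:**
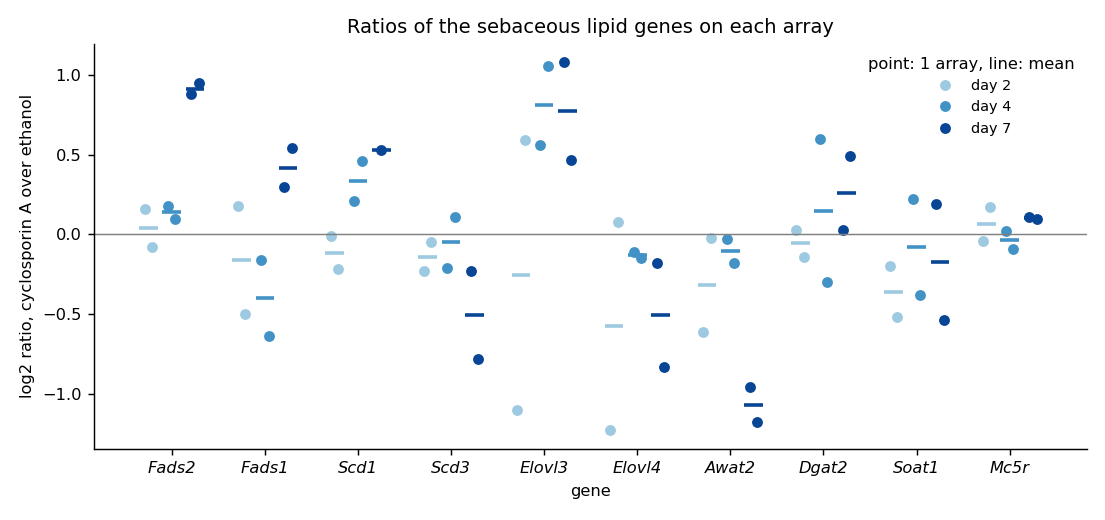
Log2 ratio of cyclosporin A over ethanol (vertical axis) for the 10 genes (horizontal axis), with a point for each array and a line for the mean of each day, days 2, 4 and 7 from light to dark. The 2 day 7 points of Fads2 (0.88 and 0.95) and of Awat2 (-0.96 and -1.18) lie apart from those of days 2 and 4, except that 1 day 2 array of Awat2 is at -0.61.

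Elongases extend the fatty acid chain. Elovl3, which makes saturated and monounsaturated very long chains in sebaceous glands and brown fat, had the widest spread of the 10 genes. Its log2 ratio was -1.1 and 0.59 at day 2, 0.56 and 1.06 at day 4, and 1.08 and 0.47 at day 7. Cyclosporin A was above ethanol on 5 of 6 arrays, the exception being replicate 1 of day 2. The means of 0.81 at day 4 and 0.77 at day 7 (SE 0.37 each) did not pass the test (limma, adjusted p = 0.373 and 0.278). The level with cyclosporin A was 11.43 and 12.47 at day 2, 11.67 and 11.63 at day 4, and 11.73 and 11.35 at day 7. With ethanol it was 12.53 and 11.89 at day 2, 11.11 and 10.57 at day 4, and 10.65 and 10.88 at day 7. Within the cyclosporin A channel, day 7 minus day 2 was -0.41 (SE 0.32, limma, adjusted p = 0.623). Within the ethanol channel it was -1.45 (SE 0.25, 95% interval -2.02 to -0.87, limma, adjusted p = 0.178), and the ethanol samples of days 4 and 7 were all below those of day 2.

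Elovl4 makes the ultra long chains of the skin barrier and of meibum. Its log2 ratio was -1.23 and 0.08 at day 2, -0.11 and -0.15 at day 4, and -0.18 and -0.83 at day 7. After loess, cyclosporin A was below ethanol on 5 of 6 arrays, with the exception near 0. With median centring the direction did not hold: the ratios were -0.45 and 0.89 at day 2, 0.75 and 0.44 at day 4, and 0.38 and -0.14 at day 7. No day passed the test (limma, adjusted p = 0.58, 0.872 and 0.358). Replicate 1 of day 2 gave the lowest ratio of the 6 arrays for both elongases, and the ratio of Awat2 there, -0.61, was also far below that of the other array of the day.

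Among the acyltransferases, Awat2 was lower with cyclosporin A at day 7. Its enzyme makes wax esters. At day 7 its level was 9.99 and 9.36 with cyclosporin A, against 10.95 and 10.54 with ethanol. At day 2 it was 9.5 and 10.14 with cyclosporin A, against 10.11 and 10.16 with ethanol. At day 4 it was 10.22 and 10.28 with cyclosporin A, against 10.25 and 10.46 with ethanol. After loess, cyclosporin A was below ethanol on all 6 arrays, but on 3 of 6 with median centring, which gave a mean of 0.4 at day 4. After loess the ethanol samples of day 7 were the 2 highest of the 12 samples. The log2 ratio at day 7 was -0.96 and -1.18, a mean of -1.07 (SE 0.16, 95% interval -1.46 to -0.69) or 2.1-fold lower with cyclosporin A (limma, adjusted p = 0.0259). The call was lost without either array of day 4 (adjusted p = 0.0707 each), without replicate 1 of day 7 (0.135) and without replicate 2 of day 7 (0.168), with the log2 ratio between -1.18 and -0.96. It was also lost with the scanner software's processed signals, median centring and scale normalization (adjusted p = 0.057, 0.0537 and 0.0568).

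Dgat2, which makes the last step of triglyceride synthesis, had a level near the top of the scale in both channels, with means of 15.42 for cyclosporin A and 15.16 for ethanol at day 7. The log2 ratio of its brightest probe was 0.03 and -0.14 at day 2, 0.6 and -0.3 at day 4, and 0.03 and 0.49 at day 7. The 2 dimmer Dgat2 probes gave means of -0.2 and 0.08 at day 7, so the 3 probes did not share a direction. Soat1, which esterifies cholesterol, had log2 ratios of -0.2 and -0.52 at day 2, 0.22 and -0.38 at day 4, and 0.19 and -0.54 at day 7. Its 2 dimmer probes gave means of 0.01 and -0.27 at day 7, and of 0.35 and -0.16 at day 4. For either gene the 2 arrays lay on opposite sides of 0 on 2 of the 3 days, and no day passed the test (limma, adjusted p between 0.524 and 0.962 for Dgat2 and between 0.629 and 0.893 for Soat1). Mc5r, at the edge of detection, had a log2 ratio between -0.09 and 0.17 on the 6 arrays and passed at no day (limma, adjusted p between 0.611 and 0.922).

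The ratio averaged over the 3 days was called for the same 2 genes, beside 13.1% of all genes. Awat2 averaged -0.5 (SE 0.09, limma, adjusted p = 0.0244) and Fads2 averaged 0.36 (SE 0.07, limma, adjusted p = 0.0234). This count was 0 without either array of day 4 or either array of day 7. The average of Awat2 was 0.02 with median centring.

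Whether the ratio differed between days was tested directly. For day 7 minus day 2, 0 of the 10 genes were called by limma, with 3 at an unadjusted p under 0.05 (6.13% of all genes), and 0.264% of all genes were called. For day 7 minus day 4, 0 were called by limma, with 3 at an unadjusted p under 0.05 (4.47% of all genes), beside 0.202% of all genes called. For day 4 minus day 2, 0 were called by limma, with 0 at an unadjusted p under 0.05 (2.24% of all genes), beside 0% of all genes called. Fads2 differed by 0.88 for day 7 minus day 2 (95% interval 0.48 to 1.27, limma, adjusted p = 0.213) and by 0.78 for day 7 minus day 4 (0.38 to 1.17, adjusted p = 0.454). Awat2 differed by -0.76 for day 7 minus day 2 (-1.3 to -0.21, adjusted p = 0.611) and by -0.97 for day 7 minus day 4 (-1.52 to -0.42, adjusted p = 0.664). Neither gene was shown to differ between days.

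Each channel was then followed over the days. For day 7 against day 2, 0 of the 10 genes were called by limma in the cyclosporin A channel, with 3 at an unadjusted p under 0.05 (13.9% of all genes), beside 0.976% of all genes called. In the ethanol channel 0 were called by limma, with 2 at an unadjusted p under 0.05 (11.3% of all genes), beside 0.0352% of all genes called. For Fads2, day 7 minus day 2 was 0.67 in the cyclosporin A channel (95% interval 0.31 to 1.02, limma, adjusted p = 0.113). In the ethanol channel it was -0.21 (-0.53 to 0.11, limma, adjusted p = 0.588). For Awat2 the difference was -0.14 in the cyclosporin A channel (-0.77 to 0.49, adjusted p = 0.871), against 0.61 in the ethanol channel (0.22 to 1.01, adjusted p = 0.301). These channel values did not pass the test, and the slide changed together with day 7.

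**Figure D2:**
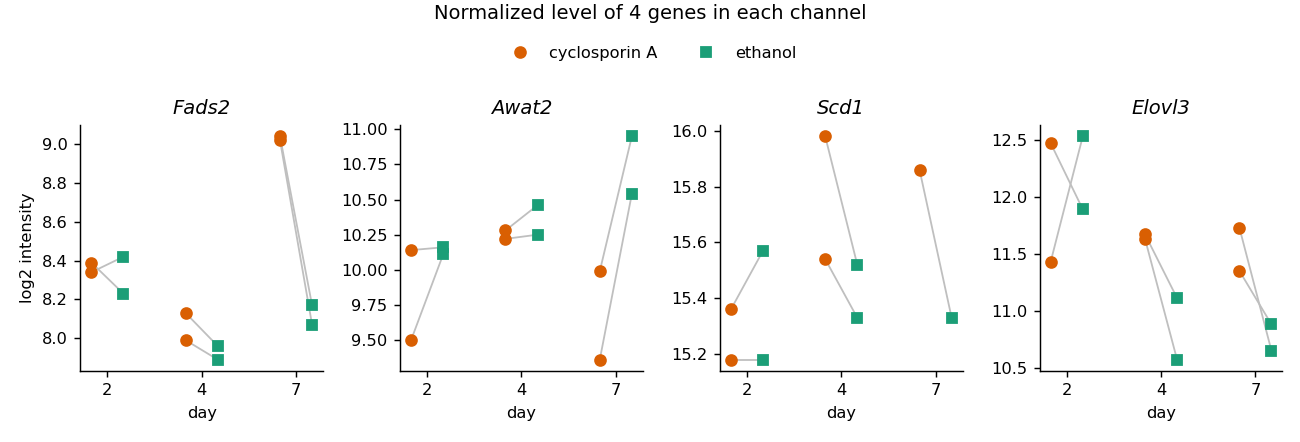
Normalized log2 intensity (vertical axis) of Fads2, Awat2, Scd1 and Elovl3 by day (horizontal axis), with cyclosporin A samples as circles on the left and ethanol samples as squares on the right of each day, and a grey line joining the 2 samples of an array. The 2 cyclosporin A samples of day 7 are the highest of all for Fads2 (9.04 and 9.02), and the 2 ethanol samples of day 7 are the highest for Awat2 (10.95 and 10.54).

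The wider pathway of fatty acid synthesis, desaturation and elongation did not move one way. Of 28 listed genes 26 were tested, and at day 7, 2 were called higher and 0 lower, beside 2.35% and 0.642% of all genes. At an unadjusted p under 0.05 in limma were 11 (6 higher and 5 lower), beside 22.1% of all genes. The median log2 ratio was 0.07, with 13 of 26 above 0. The 2 called were Fasn, the synthase that builds palmitate, with log2 ratios of 1 and 1.48 (mean 1.24, SE 0.16, 2.37-fold higher, limma, adjusted p = 0.0177), and Scd2, described above. Fasn was 0.15 and 0.32 at day 2, and 0.79 and 0.39 at day 4, so that cyclosporin A was above ethanol on all 6 arrays. Neither was called without 1 of the arrays of day 7, with an adjusted p of 0.059 for Fasn and 0.0698 for Scd2 without replicate 1, and of 0.123 and 0.126 without replicate 2. Both were also lost with the scanner software's own normalization (adjusted p = 0.0951 for Fasn and 0.0765 for Scd2). At the low end, Elovl6, the elongase that turns palmitate into stearate and chosen after its values were seen, had -1.24 and -0.86 (mean -1.05, limma, adjusted p = 0.0912).

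**Figure D3:**
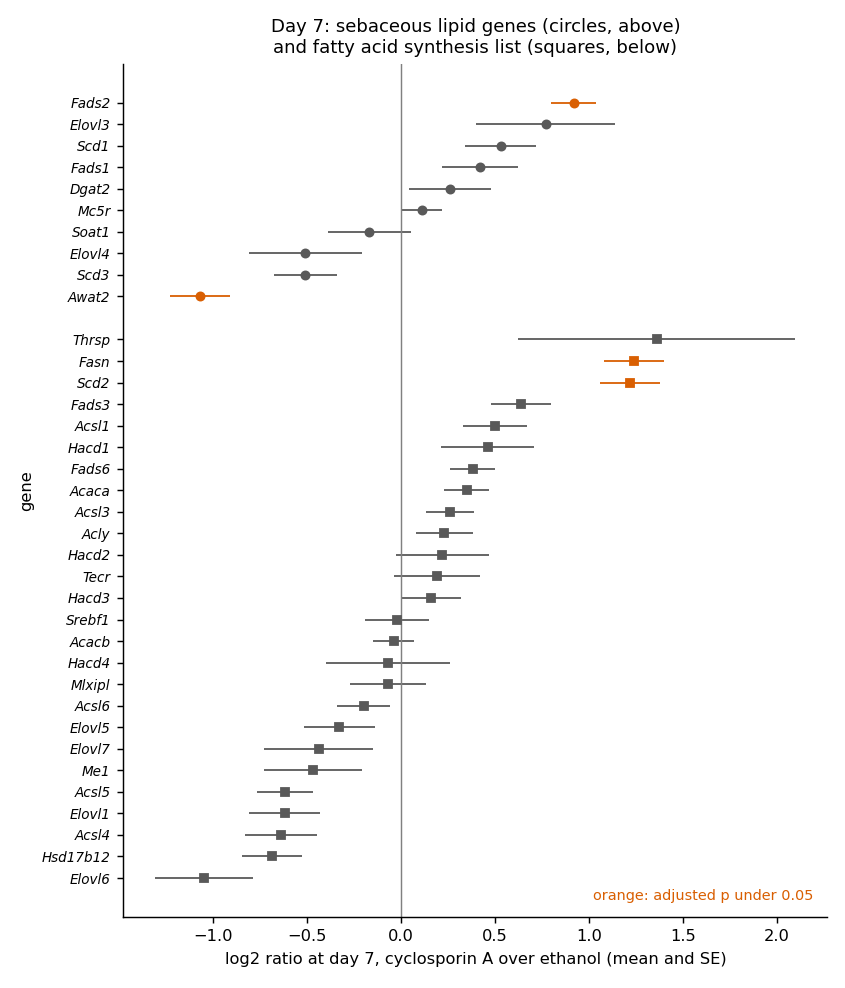
Mean log2 ratio of cyclosporin A over ethanol at day 7 with its SE (horizontal axis) for the 10 sebaceous lipid genes (circles) and the 26 tested genes of the fatty acid synthesis list (squares), ordered by value within each set. Orange marks an adjusted p under 0.05: Fads2 (0.92), Awat2 (-1.07), Fasn (1.24) and Scd2 (1.22).

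Other genes of the sebaceous gland, taken as 15 tested of 18 listed, gave 0 calls at day 7 by limma, with 1 at an unadjusted p under 0.05. At day 7, 22.1% of all genes were below that unadjusted threshold. Their median log2 ratio was -0.14, with 4 of 15 above 0. The lowest p-value was that of Plin2, a lipid droplet coat protein, with -0.45 and -0.43 (limma, adjusted p = 0.166). Next came Cers4, a ceramide synthase of sebocytes, with -0.27 and -0.95 (limma, adjusted p = 0.234). Each kept its sign at day 7 in 16 of 17 settings, with a highest value of 0.44 for Plin2 and 0.11 for Cers4. Of 20 genes of triglyceride synthesis and lipid droplets, 0 were called at day 7 by limma, with 4 at an unadjusted p under 0.05 (2 higher and 2 lower, beside 22.1% of all genes), and the median was 0.03. Mogat1, which makes diacylglycerol, had 0.36 and 0.67 (limma, adjusted p = 0.105), with its ethanol signal well above background on 1 of the 2 arrays of day 7. Mogat2, of the same family, was not well above background with ethanol on either array of day 7. Its measured level there was 7.08 with cyclosporin A against 6.68 with ethanol, or 1.32-fold. It did not pass the test (limma, adjusted p = 0.122). The 2 lower genes, Fitm1 with a mean of -0.54 (limma, adjusted p = 0.136) and Agpat3 with -0.37 (limma, adjusted p = 0.129), were named after their values were seen.

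In the melanocortin system 7 of 9 genes were tested and 1 was called higher at day 7, beside 2.35% of all genes. This was Mc1r, the melanocortin receptor of pigment cells, with log2 ratios of 0.98 and 0.97 and at least 1.97-fold higher with cyclosporin A (limma, adjusted p = 0.0159). Mc1r was well above background in all 6 cyclosporin A samples and in 0 of 6 ethanol samples. It therefore passed the filter only through the channel in which it is high, has no value under the stricter filter, and its call says nothing of the list. The fold is a lower bound that sets the mean of the 2 cyclosporin A arrays, 7.62, against the higher of the ethanol probe and the dimmest probe well above background on each array, 6.65, which was also the measured ethanol mean. The call was lost without either array of day 4 (adjusted p = 0.0521 each), without replicate 1 of day 7 (0.117) and without replicate 2 (0.106), and with the scanner software's processed signals (log2 ratio 1.85, adjusted p = 0.0826). Of 13 tested genes of epidermal ceramide synthesis, 0 were called at day 7 by limma, with 4 at an unadjusted p under 0.05 (beside 22.1% of all genes), and the median was -0.25. Sptlc3, a subunit of the enzyme that starts sphingolipid synthesis, had -0.95 and -0.49 (limma, adjusted p = 0.111), and Alox12b, a lipoxygenase of the skin barrier, had -0.68 and -0.45 (limma, adjusted p = 0.14). Of 19 tested genes of cholesterol synthesis, 0 were called at day 7 by limma, with 3 at an unadjusted p under 0.05 (beside 22.1% of all genes), and the median was 0.05. Srebf2, the transcription factor that controls this pathway, had -0.59 and -0.36 (limma, adjusted p = 0.112), and Mvk, mevalonate kinase, had -0.49 and -0.19 (limma, adjusted p = 0.195).

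Markers of other cell types differed at day 7 beside Fads2 and Awat2. All 3 tested markers of the inner root sheath of the growing hair follicle, of 7 listed, were called higher, beside 2.35% of all genes. These were Krt25, Krt27 and Krt71, with mean log2 ratios of 5.2, 5.72 and 6.18. Their summed log2 level was between 17.38 and 17.61 with cyclosporin A, against 11.33 to 11.9 with ethanol. Of 6 tested markers of the suprabasal epidermis, 2 were called lower (Lce1a1 and Sbsn), beside 0.642% of all genes. The summed level of the 6 was between 18.05 and 18.27 with cyclosporin A, against 18.83 to 19.11 with ethanol. Lce1a1 had a log2 ratio of -1.25 and Sbsn of -1.22 (limma, adjusted p = 0.0413 each). Both calls were lost, at about the same log2 ratios (-1.26 to -1.24 and -1.25 to -1.19), without either array of day 4 (adjusted p = 0.0917 and 0.0979), replicate 1 of day 7 (0.227 and 0.224) or replicate 2 (0.196 and 0.2). They were also lost with no filter (0.0538 each), scale normalization (0.0851 and 0.0822), processed signals (0.201 and 0.175), deposited ratios (0.202 and 0.176) and median centring, where the log2 ratios were -0.37 and -0.25 (0.299 and 0.5). Of 10 tested adipocyte markers, 0 were called by limma, with 4 at an unadjusted p under 0.05, all higher, beside 22.1% of all genes. The lowest p-values were those of Fabp4 (0.82, limma, adjusted p = 0.112) and Cd36 (0.44, limma, adjusted p = 0.144). The summed level of the 9 measured on every array was between 18.35 and 18.58 with cyclosporin A, against 17.96 to 18.17 with ethanol.

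Of 7 tested skeletal muscle markers, Ttn was called lower (-1.2 and -1.61, mean -1.41, limma, adjusted p = 0.0169), beside 0.642% of all genes. The summed level of the 7 was between 17.84 and 18.46 with cyclosporin A, against 18.5 to 18.57 with ethanol. The call of Ttn was lost with processed signals (limma, adjusted p = 0.16) and deposited ratios (0.158). With the mean of the gene's probes in place of the brightest, the log2 ratio was -0.72 and the call was also lost (0.156). It was lost too without replicate 1 of day 7 (log2 ratio -1.61) or replicate 2 (-1.2). Of 3 tested macrophage markers, 0 were called by limma, with 1 at an unadjusted p under 0.05 (beside 22.1% of all genes). Their summed level was between 16.5 and 16.65 with cyclosporin A, against 17.11 to 17.21 with ethanol. Cd163 had -1.59 and -0.6 (limma, adjusted p = 0.0841) and Lyz2 had -0.44 and -0.72 (limma, adjusted p = 0.369). Of 6 tested markers of basal keratinocytes, 0 were called by limma, with 1 at an unadjusted p under 0.05 (beside 22.1% of all genes). The summed level of the 5 measured on every array was between 17.41 and 17.87 with cyclosporin A, against 17.95 to 18.11 with ethanol. Krt5 had -0.33 and -0.68 (limma, adjusted p = 0.219) and Itga6 had -0.02 and -0.32 (limma, adjusted p = 0.522), and both, like Lyz2, were above 0 with median centring. Each marker in these sums was above background in both treatments on at least 1 array of day 7. Adipocytes also express Scd1, Dgat2, Fasn and Elovl3, and their part in the values above, like that of the follicle, the epidermis, muscle and macrophages, was not tested.

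The genes whose ratios ran closest to those of the called genes were found among 13350 genes with a symbol and a value on all 6 arrays, by the root mean square difference of log2 ratios over the 6 arrays. The nearest to Fads2 was Gprc5d (0.101) and the nearest to Awat2 was Atp12a (0.112). At day 7 Gprc5d had a log2 ratio of 0.87 and Atp12a of -0.97. Both genes were picked for nearness in these same ratios, so such values follow from the choice and are no separate result. Of the 9 sebaceous lipid genes with a value on all 6 arrays, which leaves out Scd1, the nearest to Fads2 was Dgat2 (0.463), with 3291 genes nearer. The nearest to Awat2 was Scd3 (0.399), with 399 genes nearer. Scd1 lay 0.267 from Fads2 over the 5 arrays on which it was measured. That distance leaves out 1 array of day 7, so it is not measured like the others.

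How the dyes were balanced changed the direction of several values. Loess removes a dye difference that depends on brightness, and median centring removes only its overall size. The centring used the median of all spots but controls, including dim spots that the filter later removed. After it, the median of the genes tested was 0.39 at day 2, 0.27 at day 4 and 0.17 at day 7. That of the 2590 genes with a mean log2 intensity of at least 12 was 0.86, 0.79 and 0.64. Of the 10 sebaceous lipid genes 4 are this bright. Relative to loess, Scd1 at day 7 was 1.54 in place of 0.53 and Dgat2 was 1.15 in place of 0.26. Fads2 was 1.13 with median centring (adjusted p = 0.00487) and Awat2 was -0.64 (adjusted p = 0.0537), so each kept its direction at day 7. The day 7 means of Scd3, Elovl4, Soat1 and Mc5r, which were not called, changed sign.

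**Figure D4:**
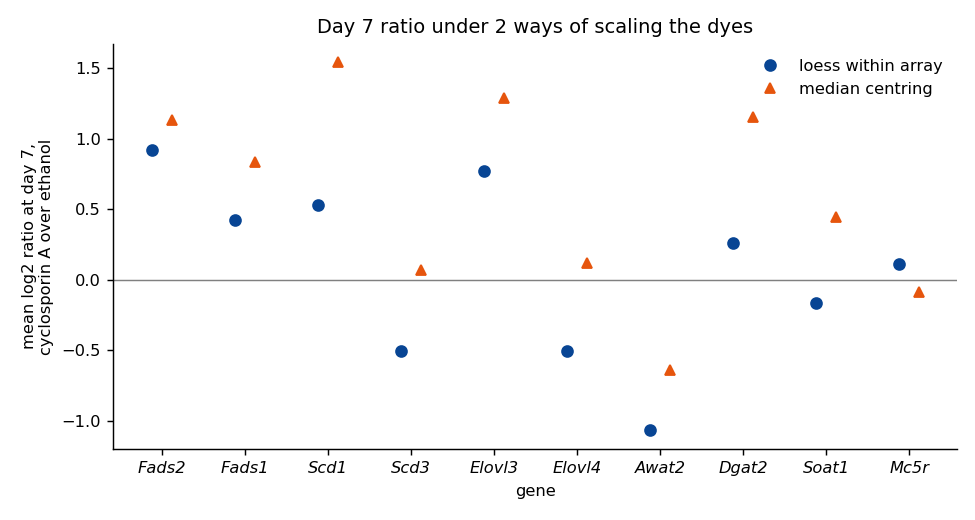
Mean log2 ratio of cyclosporin A over ethanol at day 7 (vertical axis) of the 10 genes (horizontal axis) after loess within each array (circles) and after median centring (triangles). Fads2 (0.92 and 1.13) and Awat2 (-1.07 and -0.64) stay on their side of 0, while Scd3 is at -0.51 and 0.07 and Scd1 at 0.53 and 1.54.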

How the data were processed

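RNA of back skin was measured on 6 Agilent whole mouse genome arrays, 2 for each of days 2, 4 and 7, with cyclosporin A in Cy5 and ethanol in Cy3 per the labels. The deposited scanner files hold each spot's median pixel intensity and local background in both channels, and the submitters' processing notes name Agilent Feature Extraction 9.1 as the software. The deposited value table holds log10 ratios of Cy5 over Cy3, and they were identical to the ratios in those files (largest difference 0). Their genome build is not given in the sources used here.

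Median intensities of both channels were background-corrected by normexp with an offset of 50 and normalized by loess within each array (limma 3.58.1, R 4.3.3), with 1639 control spots and the spots marked as outliers left out. Log2 levels of single channels were further normalized by Aquantile, and no deposited log2 value was used. Of 41174 probes, 27936 were kept because at some day both arrays had them well above background in the Cy5 or the Cy3 channel. Names came from RefSeq by accession for 22951 probes and by symbol or synonym for 67; 18156 unnamed probes each stood as a feature. A gene was represented by its brightest probe. One mean per day was fitted over all 6 arrays with lmFit and eBayes, and p-values were adjusted by Benjamini-Hochberg over all genes tested. The fit was tested on simulated data. No spot of these probes was saturated. Precision is limited by there being 2 arrays per day.

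Of each other gene list, the genes called at day 7 were named (at most 4), or else the 2 with the lowest p; Fads3, Elovl6, Fitm1 and Agpat3 were named after their values were seen. The genes, the lists and the tests were chosen with earlier results of these data known. Alternatives were the scanner software's processed signals, the deposited log10 ratios, median centring, scale normalization, no filter, a stricter filter, the mean of a gene's probes, every probe as a feature, 1 array left out, arrays of 1 slide alone, the replicate number as a block, outlier spots kept, and quantile normalization of a channel.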

Additional observations from a re-analysis of the deposited data

Results flagged for a closer look

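No group held enough arrays for a test of outlying samples. Fads1 was looked at again because cyclosporin A was below ethanol on both arrays of day 4 and above it on both arrays of day 7. The log2 ratio at day 7 minus that at day 4 was 0.82 (95% interval 0.16 to 1.48), with an unadjusted p of 0.0223 in limma's fit over all genes and an adjusted p of 0.934. Scd1 was below ethanol on both arrays of day 2 and above it on both arrays of day 4. The log2 ratio at day 4 minus that at day 2 was 0.45 (95% interval -0.02 to 0.91), with an unadjusted p of 0.0566 in limma's fit and an adjusted p of 0.999. Neither difference passed the test.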

How the results depend on the processing

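Of the 10 genes, 2 were called at day 7 and 2 in the average of the days. Processed signals gave 1 and 1, scale normalization gave 1 at day 7, and both lost Awat2 at day 7 (adjusted p = 0.057 and 0.0568). Median centring gave 3 at day 2, 4 at day 4, 5 at day 7 and 8 in the average. It also made calls of the opposite sign of values that were not called after loess, with log2 ratios of 0.92 for Scd1, 0.62 for Scd3 and 0.98 for Dgat2 at day 2, and 0.61 for Scd3 at day 4. In the average it gave 0.02 for Awat2, whose call was lost, and opposite signs of 0.43 for Fads1, 0.44 for Scd3, -0.27 for Mc5r and 0.49 for Soat1. With 1 array left out the count was 0 to 2 at day 7 and 0 to 3 in the average. Without replicate 2 of day 7, Scd1 had no value at day 7. Fads2 at day 7 was called in all 11 other alternatives (adjusted p 0.00487 to 0.0434), and its log2 ratio was above 0 in all 17 settings. Awat2 at day 7 was below 0 in all 17 and called in 9.

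The labels do not say whether the replicate numbers pair samples across days. Deviations of same-numbered arrays correlated at 0.01 (days 2 and 4), -0.28 (days 2 and 7) and -0.02 (days 4 and 7). These correlations cannot settle whether the samples were paired. With the replicate block the count was 1 at day 7 (Fads2, adjusted p = 0.0434, while Awat2 was lost at 0.058) and 0 in the average, and 330 of all genes were called at day 7.

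Over all genes 680 were called at day 7. This was 221 with processed signals, 287 with the deposited ratios (262 higher and 25 lower, against 534 and 146), 4968 with median centring, 316 with scale normalization, 371 with the stricter filter, 409 within 1 slide, and 147 to 688 with 1 array left out. In the average 2974 were called, against 1191, 1680 and 13594 for the first 3, 5419 with no filter, 1099 with the stricter filter, 1266 with the block, and 27 to 1504 with 1 array left out. The stricter filter removes Scd1 and Mc5r. The cause of these changes was not tested.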
